A study of Mus musculus with 8 samples.

Results

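The genes described here are 48 genes of DNA replication and deoxynucleotide synthesis, read in mouse CD11b+Gr-1+ myeloid cells on Affymetrix arrays. Among the probe sets annotated to a gene alone, the one of highest average level across the 8 arrays stood for it. Such a probe set was found for 47 of the 48 genes, out of 18194 genes on the array, and Chaf1a was not analysed here. A gene was tested when at least 2 arrays lay at or above log2 5, a level taken here as background, and 40 of the 47 passed that filter. The other 7 are Orc1, Gins2, Gins3, Tyms, Chaf1b, Exo1 and Ung.

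All mice are labelled C57BL/6J and carry HDC-EGFP, a transgene that marks cells in which Hdc is active with a green fluorescent protein. Histamine is made by histidine decarboxylase, the product of Hdc. The wild-type groups have the genotype HDC-EGFP and the knockout groups HDC-EGFP/HDC-KO. In each genotype, 3 mice of 3 to 4 months gave the bone marrow cells, which the labels call HDC-expressing. The tumor cells came from colon tumors of 5 mice per genotype aged 7 months, given 1 dose of azoxymethane, a carcinogen, and then dextran sodium sulfate, an irritant of the colon, for 10 days. These tumors were collected 22 to 24 weeks later, and no EGFP gate is named for them. RNA of each of the 4 groups was hybridised to 2 technical arrays. The tumor RNA was pooled, and the sources used here do not say whether the marrow RNA was. The p-values below set 1 pool beside another, with repeat hybridisations as the only measure of error, and variation from mouse to mouse was not measured.

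Hdc was 10.2-fold lower in HDC-KO than in wild-type bone marrow (limma with Benjamini-Hochberg adjustment, adjusted p = 1.5e-06), but 1.16-fold lower in the pool labelled HDC-KO tumor than in wild-type tumor, so directions that involve this pool are those of its label. Of the surface markers used for sorting, Itgam, which encodes CD11b, had means of 12.23 in wild-type marrow, 12.38 in HDC-KO marrow, 11.93 in wild-type tumor and 11.25 in the pool labelled HDC-KO tumor. Itgam fell 2.18-fold in that last pool against HDC-KO marrow, and its difference of -0.67 between the tumor pools was under 2-fold. Ly6g was not analysed here. S100a8 and S100a9, which encode abundant granulocyte proteins, lay at 15.12 to 15.18. Other mature neutrophil genes were less even. Over the 9 tested genes of that list, differences between the tumor pools ran from -1.63 to 0.87. For tumor minus marrow in the pools labelled HDC-KO they ran from -1.69 to 9.62. Across the 8174 tested genes, correlation between the technical arrays of each pool was 0.9955 to 0.9981. Over the 40 genes the median technical SD was 0.14 in the pool labelled HDC-KO tumor, wider than the 0.06 of each other pool.

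A cell that is about to copy its genome first licenses its replication origins. The origin recognition complex, Cdc6 and Cdt1 load the ring-shaped Mcm helicase onto DNA in the G1 phase. In S phase the helicase is switched on by Cdc45 and the GINS complex, polymerases copy the strands with the sliding clamp Pcna, and ribonucleotide reductase supplies the deoxynucleotides. Many of these genes are transcribed as a group late in G1 under E2F transcription factors. In the granulocyte lineage, dividing precursors stay in the marrow and mature neutrophils no longer divide.

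The promoters of the 48 genes were searched for the E2F-type motif, spelled TTTCCCGC, TTTCGCGC, TTTGCCGC or TTTGGCGC on either strand. Windows of 300 bases, from 250 before to 50 after the start of transcription, were available for 40 of the 48 genes in RefSeq for GRCm38.p6, with several windows for 5 genes. At least 1 match was present in 14 of the 40 genes, or 35%, against 2.6% of all 27025 genes with a window. By outcome in the tumor comparison described below, a match was present in 11 of the 28 genes that fell. Such a match was also present in 1 of the 6 tested genes that did not pass and 2 of the 6 not tested. These shares describe the gene list, and whether the motif bears on the falls was not tested. The CCAAT box, the motif of the factor NF-Y, was present in 62.5% of the 40 genes and 41.1% of all genes. The cell cycle homology region, spelled TTTGAA or TTCGAA, was present in 17.5% and 21.7%. The windows of the 48-gene set were richer in G and C, with a median of 59.2% against 52.7% for all windows, and the part of base composition in these shares was not tested. A match is a run of letters, not a measured binding site.

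The windows below show the helicase subunits Mcm2, Mcm3, Mcm5 and Mcm6, the loader Cdc6 and its partner Cdt1, because loading of the helicase is the step that licenses an origin. Each is written 5′ to 3′ on the gene's own strand, and capitals mark E2F-type and CCAAT matches in either orientation. Of the 5 genes from Mcm2 to Mcm7 with a window, 4 held an E2F-type match, and Mcm2 held none. In Mcm5 and Mcm6 matches on opposite strands overlap in a single longer run. The 6 genes were chosen after their levels and their matches had been seen, so the number of matches among them stands for nothing beyond them. Of Brca1, Rad51ap1, Mcm2, Cdc6, Tk1 and Prim1, which were looked at first for their large falls, Cdc6 alone held an E2F-type match. That choice left out Uhrf1 at -3.62 and Lig1 at -3.04 between the tumor pools, where Mcm2 had -3.03. Uhrf1 and Lig1 each held an E2F-type match.
Mcm2 (chr6:88898731-88899030, minus strand): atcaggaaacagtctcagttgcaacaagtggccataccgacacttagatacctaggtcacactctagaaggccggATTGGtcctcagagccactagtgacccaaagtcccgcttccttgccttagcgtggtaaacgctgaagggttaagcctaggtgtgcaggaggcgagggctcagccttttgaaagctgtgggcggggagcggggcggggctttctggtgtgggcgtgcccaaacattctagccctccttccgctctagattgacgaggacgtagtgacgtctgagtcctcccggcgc
Mcm3 (chr1:20820263-20820562, minus strand): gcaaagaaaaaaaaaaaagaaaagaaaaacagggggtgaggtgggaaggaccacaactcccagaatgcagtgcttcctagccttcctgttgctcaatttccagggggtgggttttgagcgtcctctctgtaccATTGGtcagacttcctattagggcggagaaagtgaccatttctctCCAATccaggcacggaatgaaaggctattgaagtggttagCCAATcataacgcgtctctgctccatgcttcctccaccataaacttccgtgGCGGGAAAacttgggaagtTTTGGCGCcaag
Mcm5 (chr8:75109259-75109558, plus strand): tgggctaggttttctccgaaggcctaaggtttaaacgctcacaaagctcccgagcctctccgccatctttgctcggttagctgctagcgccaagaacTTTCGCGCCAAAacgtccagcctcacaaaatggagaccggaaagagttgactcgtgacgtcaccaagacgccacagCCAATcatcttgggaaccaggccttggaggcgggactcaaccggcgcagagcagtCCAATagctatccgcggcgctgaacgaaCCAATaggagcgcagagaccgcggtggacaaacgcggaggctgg
Mcm6 (chr1:128359656-128359955, minus strand): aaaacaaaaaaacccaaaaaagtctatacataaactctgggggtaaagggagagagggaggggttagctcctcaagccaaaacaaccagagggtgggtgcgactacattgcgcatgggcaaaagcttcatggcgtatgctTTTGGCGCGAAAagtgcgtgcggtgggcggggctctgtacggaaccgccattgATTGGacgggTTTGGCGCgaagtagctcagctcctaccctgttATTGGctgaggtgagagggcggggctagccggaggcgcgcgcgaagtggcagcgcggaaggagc
Cdc6 (chr11:98907901-98908200, plus strand): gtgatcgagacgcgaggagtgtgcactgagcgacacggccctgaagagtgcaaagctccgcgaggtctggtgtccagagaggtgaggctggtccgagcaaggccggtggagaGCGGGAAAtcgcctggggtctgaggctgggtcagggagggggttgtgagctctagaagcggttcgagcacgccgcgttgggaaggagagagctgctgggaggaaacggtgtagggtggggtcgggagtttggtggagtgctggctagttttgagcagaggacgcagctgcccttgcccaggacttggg
Cdt1 (chr8:122567765-122568064, plus strand): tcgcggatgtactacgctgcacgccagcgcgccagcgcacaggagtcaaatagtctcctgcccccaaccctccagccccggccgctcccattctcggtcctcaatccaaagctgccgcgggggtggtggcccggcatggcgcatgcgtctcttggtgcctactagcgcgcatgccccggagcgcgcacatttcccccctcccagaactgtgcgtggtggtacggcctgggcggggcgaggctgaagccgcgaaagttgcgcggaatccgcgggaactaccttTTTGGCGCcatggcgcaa

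In the comparison of the tumor pools, 33 of the 40 tested genes fell in the pool labelled HDC-KO, none rose, and 7 did not pass the test (limma; passing means a 2-fold or greater difference with a Benjamini-Hochberg adjusted p under 0.05). Of all 8174 tested genes, 10.5% fell and 15.5% rose in the same comparison. The median log2 difference of the 40 genes was -1.99, or -1.63 with pool means under log2 5 raised to 5, against 0.03 over all tested genes. The filter was passed by 14 of the 40 although at least 1 of their pool means lay under log2 5. The other 26 had all 4 pool means at or above it, and of these 20 fell. In bulk RNA, fewer cells of a type and less RNA per cell cannot be told apart. In 38 of the 40 genes both arrays of the pool labelled HDC-KO tumor lay below the 6 other arrays, which held for 34.9% of all tested genes, and the exceptions were Pola2 and Pold2.

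**Figure D1:**
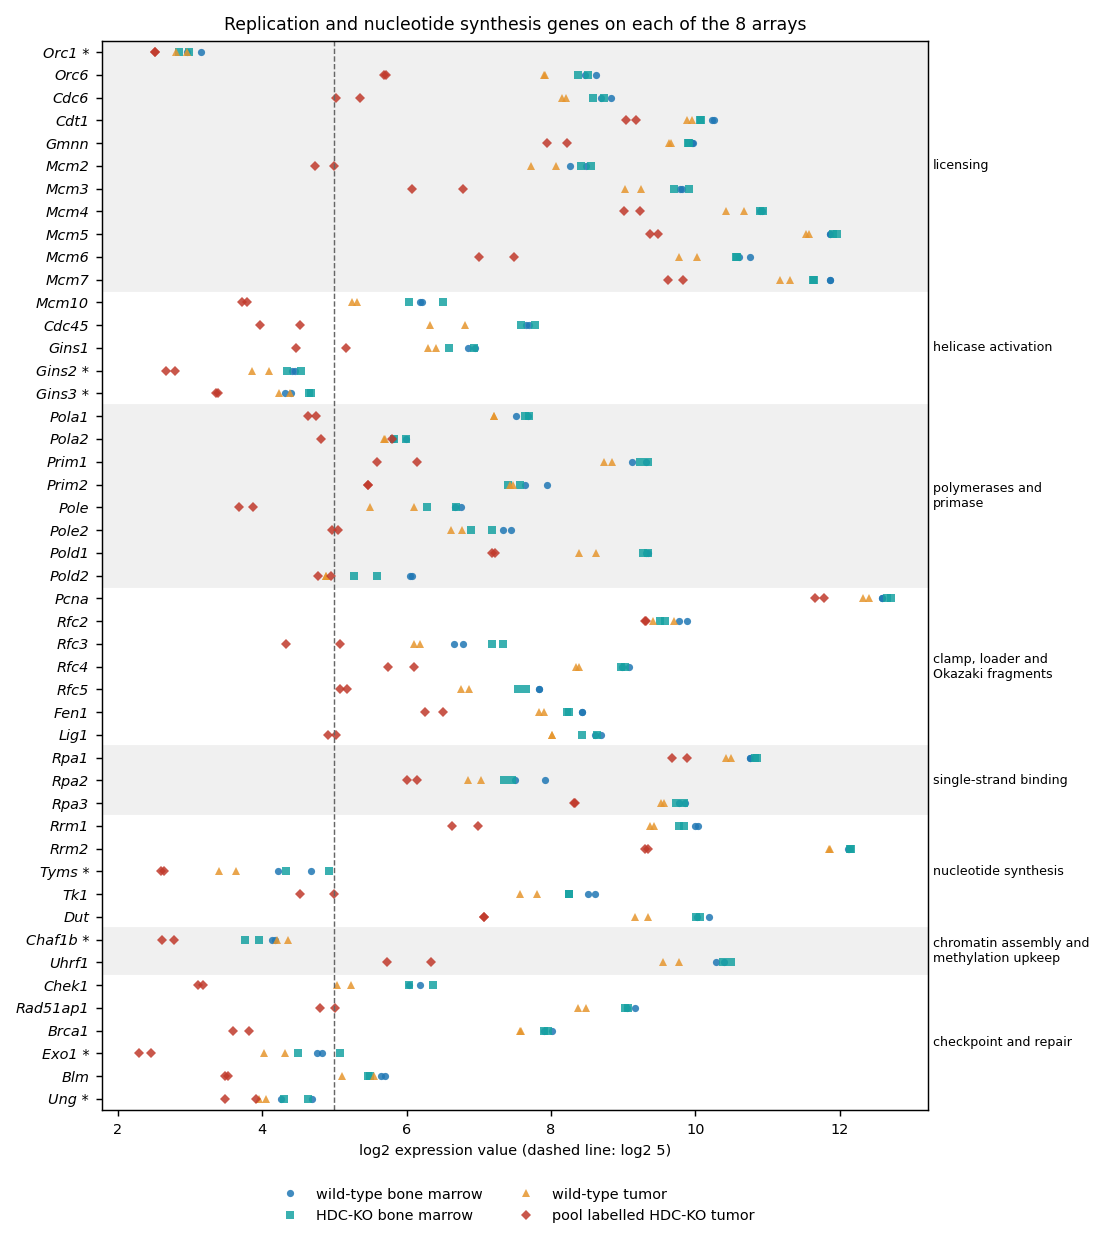
Log2 expression value (x axis) of the 47 genes with a probe set (rows, grouped by role) on each of the 8 arrays; each pool has 2 points, which are technical arrays, and an asterisk marks the 7 genes not tested. The red diamonds of the pool labelled HDC-KO tumor stand to the left of the other pools in most rows, while the 2 bone marrow pools overlap or lie close to each other.

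Origin licensing genes were among those that fell. Of 11 such genes 10 were tested and 9 fell between the tumor pools, with a median difference of -2.16. Mcm2, a helicase subunit, read 8.48 and 8.27 on the wild-type marrow arrays, 8.42 and 8.56 in HDC-KO marrow, 7.72 and 8.07 in wild-type tumor, and 5.00 and 4.73 in the pool labelled HDC-KO tumor. The 2 arrays of that last pool stood apart below all others. Mcm2 was therefore at least 7.43-fold lower there than in wild-type tumor, a log2 difference of -3.03 ± 0.15 (SE, n = 2 technical arrays per pool; limma, adjusted p = 1e-05). The other 5 subunits of the ring fell as well, Mcm3 by 2.71 and Mcm6 by 2.65 on the log2 scale, Mcm5 by 2.12, Mcm7 by 1.52 and Mcm4 by 1.43. All 6 subunits of the ring therefore passed.

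Cdc6, the loader of the helicase, read 8.83 and 8.70 in wild-type marrow, 8.58 and 8.74 in HDC-KO marrow, 8.21 and 8.16 in wild-type tumor, and 5.35 and 5.02 in the pool labelled HDC-KO tumor. The arrays of the 3 other pools all lay above 8, and the fall between the tumor pools was 7.99-fold (limma, adjusted p = 4.4e-06). Orc6, a subunit of the origin recognition complex, fell 4.62-fold, and Gmnn, which encodes geminin, the inhibitor of Cdt1, 2.95-fold. Cdt1 itself lay at 10.23 and 10.26, 10.08 and 10.07, 9.88 and 9.95, and 9.04 and 9.18 in the same order of pools. Its arrays in the last pool were again the lowest, but the difference of -0.81 missed the 2-fold threshold on this probe set. The other tested Cdt1 probe set gave -1.20 and passed. Orc1 lay under log2 5 on all arrays.

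Genes that activate the helicase fell in all 3 cases that could be tested, with a median of -1.54. Cdc45, which rides with the Mcm ring, read 7.65 and 7.69 in wild-type marrow, 7.58 and 7.78 in HDC-KO marrow, 6.33 and 6.81 in wild-type tumor, and 4.53 and 3.97 in the pool labelled HDC-KO tumor. The 2 tumor pools did not overlap with each other or with marrow. The fall between tumor pools was at least 2.97-fold, and Gins1, a GINS subunit, was at least 2.55-fold lower. Gins1 missed the threshold at a log2 difference of -0.90 as the mean of its probe sets. Mcm10, an activator of the helicase, had a log2 difference of -1.52, but with values raised to log2 5 the difference was -0.28 (limma, adjusted p = 0.13; range over its alternatives 5.1e-06 to 0.13). The untested Gins2 and Gins3 lay under log2 5 on all arrays.

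Of 8 polymerase and primase genes 6 fell between the tumor pools, with a median of -1.84 and a range from -2.92 to -0.01. Prim1, the catalytic subunit of primase, which lays the RNA primer, read 9.32 and 9.13 in wild-type marrow, 9.24 and 9.35 in HDC-KO marrow, 8.85 and 8.73 in wild-type tumor, and 5.59 and 6.15 in the pool labelled HDC-KO tumor. Its arrays in that pool lay far below the 6 others, a 7.59-fold fall. Pola1, the catalytic subunit of polymerase alpha, was at least 4.63-fold lower, Prim2, the other primase subunit, 3.99-fold lower, and Pole2, a small subunit of polymerase epsilon, 3.22-fold lower. Pole, its catalytic subunit, had a log2 difference of -2.02, which with values raised to log2 5 became -0.79, short of 2-fold.

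Pold1, the catalytic subunit of polymerase delta, fell 2.46-fold, while the mean of its probe sets gave -0.78, under the threshold. Pold2, an accessory subunit of the same enzyme, lay at 4.88 in both wild-type tumor arrays and at 4.78 and 4.96 in the pool labelled HDC-KO tumor. Both tumor pools of Pold2 were under log2 5 and overlapped, with a difference of -0.01, so no change between them can be read. Differences between subunits were not tested. Pola2, an accessory subunit of polymerase alpha, read 5.69 and 5.70 in wild-type tumor and 4.82 and 5.80 in the pool labelled HDC-KO. These 2 technical arrays disagreed by more than the pools did, and the difference of -0.39 ± 0.29 (SE) did not pass the test (limma, adjusted p = 0.27; range over its alternatives 0.0014 to 0.44).

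Among the 7 genes of the sliding clamp, its loader and Okazaki fragment joining, 5 fell, with a median of -1.5. Lig1, the ligase that joins Okazaki fragments, read 8.61 and 8.70 in wild-type marrow, 8.64 and 8.43 in HDC-KO marrow, 8.01 on both wild-type tumor arrays, and 5.03 and 4.91 in the pool labelled HDC-KO tumor. That pool stood apart from the rest, and Lig1 was at least 8.07-fold lower there than in wild-type tumor. Fen1, the flap nuclease that trims those fragments, fell 2.84-fold.

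Pcna, the clamp, read 12.58 and 12.59, 12.71 and 12.65, 12.32 and 12.40, and 11.66 and 11.79 in the same order of pools. The last pool was again lowest, by a log2 difference of -0.63 that was under the threshold. Of the clamp loader subunits, Rfc4 fell 5.44-fold, Rfc5 3.21-fold and Rfc3 at least 2.21-fold. Rfc2, a subunit of the same loader, differed by -0.25 ± 0.10 (SE), and its other 2 tested probe sets gave -0.11 and -0.40. Rfc2 therefore had no probe set past the threshold, and Rfc3 to Rfc5 did. Whether the subunits differ from each other was not tested.

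The 3 subunits of replication protein A, which coats single-stranded DNA in replication and in repair, gave small differences. Rpa3 fell 2.34-fold, while Rpa1 at -0.68 and Rpa2 at -0.86 did not pass the 2-fold threshold. A further Rpa2 probe set gave -1.32 and passed.

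All 4 tested genes of deoxynucleotide synthesis fell between the tumor pools, with a median of -2.56. Rrm2, the small subunit of ribonucleotide reductase, whose supply follows the cell cycle, read 12.13 and 12.11 in wild-type marrow, 12.15 and 12.16 in HDC-KO marrow, 11.86 and 11.85 in wild-type tumor, and 9.35 and 9.30 in the pool labelled HDC-KO tumor. Technical arrays agreed within 0.05 in all pools, and the fall was 5.79-fold, a log2 difference of -2.53 ± 0.05 (SE; limma, adjusted p = 4.6e-07). Rrm1, the large subunit, fell 6.02-fold, Dut, which removes dUTP, 4.52-fold, and Tk1, the thymidine kinase of S phase, at least 6.45-fold. Tyms, thymidylate synthase, lay at 2.60 to 4.92 and was not tested.

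Of the genes of chromatin assembly and methylation upkeep, Uhrf1 was the 1 tested. Uhrf1, which brings the maintenance DNA methyltransferase to newly copied DNA, read 10.40 and 10.29, 10.39 and 10.49, 9.77 and 9.55, and 5.73 and 6.34 in the same order of pools. The fall between the tumor pools was 12.3-fold, the largest measured fold among the 40 genes with both tumor pools at or above log2 5.

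All 4 tested checkpoint and repair genes fell, with a median of -2.75, or -1.45 with means raised to log2 5. Rad51ap1, a DNA repair gene, read 9.05 and 9.16 in wild-type marrow, 9.07 and 9.02 in HDC-KO marrow, 8.48 and 8.37 in wild-type tumor, and 4.80 and 5.01 in the pool labelled HDC-KO tumor. It was at least 10.8-fold lower in that pool than in wild-type tumor. Brca1, which acts in homologous recombination, was at least 5.97-fold lower, with a log2 difference of -3.87. Chek1, a kinase of the replication checkpoint, and Blm, a helicase that resolves recombining DNA, differed by -1.99 and -1.82. Wild-type tumor means of these genes were near background, so that with values raised to log2 5 the differences were -0.13 (limma, adjusted p = 0.38) and -0.32 (limma, adjusted p = 0.069), and neither passed.

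Where a gene had several tested probe sets, most told the same. Of 106 probe sets annotated to 1 of these genes alone, 66 reached the level for testing, 56 of them fell between the tumor pools and none rose. The rest were too dim to test, and the share that fell over all tested probe sets of the array was not computed. In 16 of the 20 genes with at least 2 tested probe sets all of them fell. In 2 genes, Cdt1 and Rpa2, they split, and in 2, Rfc2 and Rpa1, none passed.

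The limma test passed 0 of the 40 between the marrow pools, and 7 had an unadjusted p under 0.05, as did 2866 of all 8174 tested genes. Of all tested genes 3.82% passed, made up of 2.02% lower and 1.8% higher in HDC-KO marrow. The median difference, HDC-KO minus wild-type, was -0.06, with a range from -0.63 for Pold2 to 0.54 for Rfc3. Rfc3, a clamp loader subunit, read 6.66 and 6.78 in wild-type and 7.34 and 7.18 in HDC-KO marrow. These arrays did not overlap, but the difference was under the threshold (limma, adjusted p = 0.15; range over its alternatives 0.0044 to 0.39). Pold2 read 6.08 and 6.05 in wild-type and 5.59 and 5.27 in HDC-KO marrow. It had an adjusted p of 0.013 in limma, the only such value under 0.05 among the 40, with a difference below 2-fold.

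**Figure D2:**
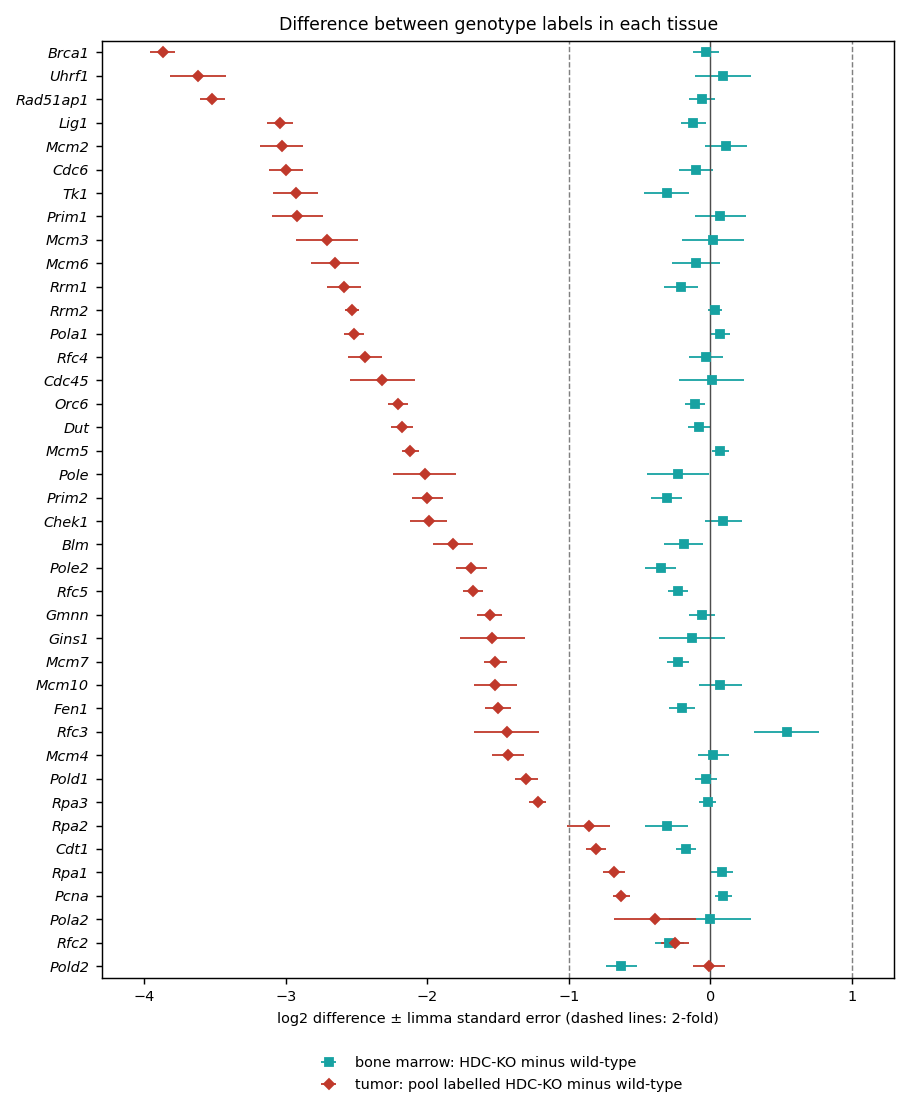
Log2 difference, HDC-KO label minus wild-type, of the 40 tested genes (rows, ordered by the tumor difference) in bone marrow (squares) and tumor (diamonds), with limma standard errors from 2 technical arrays per pool and dashed lines at 2-fold. All marrow squares lie within 0.63 of zero, while 33 tumor diamonds lie beyond a 2-fold fall.

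The next comparison asked how tumor cells differed from marrow cells of the same genotype label. Tissue, age, treatment of the mice and the selection named for the cells differ together here and cannot be told apart. In wild-type mice, 3 of the 40 genes fell in tumor and none rose, while 4.81% of all tested genes fell. The 3 were Pold2 at -1.18, Cdc45 at -1.10 and Rfc5 at -1.02, each close to the threshold. Cdc45 missed it at -0.86 without wild-type tumor array 1, and Rfc5 at -0.96 without wild-type tumor array 2. Without that same array Pole at -1.22 and Chek1 at -1.07 passed, and Chek1 passed at -1.06 without wild-type marrow array 2. The differences were small and of a single direction, with all 40 genes below 0 and a median of -0.60, against 53.5% of all tested genes below 0 and a median of -0.03. At an adjusted p under 0.05 and any size, 34 of the 40 were lower in wild-type tumor, and so were 29.4% of all tested genes.

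In the pools labelled HDC-KO, 35 of the 40 genes fell in tumor against marrow and none rose. Of all tested genes 36.5% passed, and 15.4% fell. The median was -2.54, or -2.18 with means raised to log2 5. Uhrf1 fell 21.2-fold (limma, adjusted p = 2.7e-06), Rad51ap1 at least 16.5-fold, Lig1 at least 11.6-fold, Mcm2 at least 11.2-fold and Cdc6 11.1-fold. The 5 that did not pass were Cdt1 at -0.97, Pcna at -0.95, Pola2 at -0.59, Pold2 at -0.56 and Rfc2 at -0.23. With the second tumor array of that label left out, Cdt1 at -1.04, Pcna at -1.02 and Pola2 at -1.08 passed, and Rpa1 at -0.95 did not. This comparison shares the pool labelled HDC-KO tumor with the comparison of the tumor pools, so the lists are not independent of each other. By pool means, wild-type tumor lay below both marrow pools and above the pool labelled HDC-KO tumor in 39 of the 40 genes, with Rfc2 the exception. The share of all tested genes in this order was not computed, so the count has nothing to be set against. It includes Pold2, whose tumor means of 4.88 and 4.87 both lay under log2 5.

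The difference between the genotype labels in tumor, minus that in marrow, passed for 33 of the 40 genes, all lower. Of all tested genes 28.5% passed and 11.7% were lower. The values are given gene by gene in the closing section.

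The 7 untested genes lay between 2.30 and 5.08 on all arrays. Their log2 differences between the tumor pools ran from -1.80 to -0.31, each below 0, and no fold is given because both tumor pools were under log2 5.

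Other replication genes, which take no part in the counts above, were taken from a separate list of 38, of which 33 were tested. Between the tumor pools 14 fell and none rose, with a median of -0.87. Clspn, which encodes claspin, an adaptor of the replication checkpoint, read 9.37 and 9.35 in wild-type marrow, 9.28 and 9.26 in HDC-KO marrow, 8.94 and 8.84 in wild-type tumor, and 5.20 and 5.17 in the pool labelled HDC-KO tumor. That pool stood apart, and Clspn fell by 3.71 on the log2 scale between the tumor pools. Asf1b, a histone chaperone, had a difference of -3.49 and Wdhd1, which links the helicase to polymerase alpha, of -2.46. The other 19 genes did not pass, including Orc3, Orc4 and Orc5 of the origin recognition complex at -0.25, -0.47 and 0.30, which were picked out after their values were seen.

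Other nucleotide genes were taken from separate lists. Of 17 tested genes of deoxynucleotide and folate metabolism 2 fell and 1 rose, with a median of -0.06. Mthfd2, a mitochondrial folate enzyme, fell 4.37-fold, Dtymk, which phosphorylates thymidine monophosphate, fell 3.07-fold, and Nme2, a nucleoside diphosphate kinase, rose 2.79-fold. Rrm2b, a small reductase subunit that is also made outside S phase, read 9.21 and 9.16 in wild-type tumor and 8.42 and 8.22 in the pool labelled HDC-KO. The pools did not overlap, and the difference of -0.87 was under the threshold. Rrm2b was picked out after its values were seen, and its difference from Rrm2 was not tested. Of 17 tested genes of purine and pyrimidine synthesis none fell and 1 rose, Prps2, a phosphoribosyl pyrophosphate synthetase, at 2.01-fold, with a list median of -0.25.

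Of 30 tested regulators of S phase entry 16 fell and 2 rose between the tumor pools, with a median of -1.41, or -0.61 with means raised to log2 5. Among E2F factors, E2f7, a repressor, read 8.79 and 8.77 in wild-type marrow, 8.72 and 8.74 in HDC-KO marrow, 8.17 and 8.10 in wild-type tumor, and 3.86 and 4.24 in the pool labelled HDC-KO tumor. This pool was under background, and E2f7 was at least 8.78-fold lower than in wild-type tumor. E2f8, another repressor, fell 7.35-fold and E2f2, an activator, 2.58-fold. E2f3 and E2f6 did not pass, at -0.68 and -0.24. E2f5 was at least 2.24-fold higher, and E2f1 and E2f4 lay under log2 5 on all arrays.

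Among cyclins, Ccne2, a partner of Cdk2 at the start of S phase, fell by 3.47 on the log2 scale and Ccna2, its partner within S phase, by 3.27. Ccne1 and Ccnd3 had differences of -1.52 and -1.62 and also passed, and Ccnd1 at 0.19 did not. The Ccne1 mean in the pool labelled HDC-KO tumor was 3.82, under log2 5, so its fall was at least 1.26-fold, against 3.08-fold for Ccnd3. Ccnd2, a partner of Cdk4 and Cdk6 in G1, read 6.98 and 7.02 in wild-type tumor and 9.57 and 9.40 in the pool labelled HDC-KO. It rose 5.59-fold between the tumor pools and fell 2.34-fold between the marrow pools, HDC-KO against wild-type.

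Among inhibitors of cyclin-dependent kinases, Cdkn1a, which encodes p21, read 5.05 and 4.35 in wild-type marrow, 4.81 and 5.11 in HDC-KO marrow, 9.87 and 9.95 in wild-type tumor, and 10.14 and 10.22 in the pool labelled HDC-KO tumor. All 4 tumor arrays lay above all 4 marrow arrays, groups that differ in age, treatment and cell selection as well as in tissue. Cdkn1a was at least 30.1-fold higher in tumor than in marrow in wild-type (limma, adjusted p = 7.8e-06) and at least 36.3-fold higher in the pools labelled HDC-KO. Between the tumor pools it differed by 0.27 and did not pass. Cdkn2c fell 4.40-fold between the tumor pools, Cdkn1b and Cdkn2d at -0.00 and -0.54 did not pass, and Cdkn1c lay under log2 5 on all arrays.

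**Figure D3:**
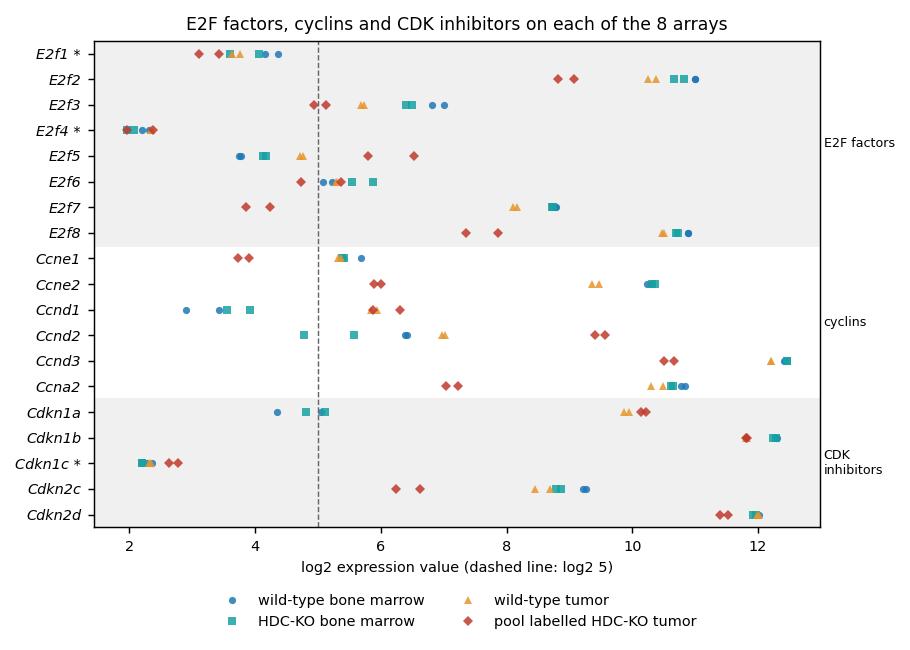
Log2 expression value (x axis) of E2F factors, cyclins and inhibitors of cyclin-dependent kinases on each of the 8 arrays, with 2 technical arrays per pool and an asterisk at genes not tested. Cdkn1a separates the 4 tumor arrays from the 4 marrow arrays, while E2f7, E2f8, Ccne2 and Ccna2 separate the pool labelled HDC-KO tumor from the other 3 pools.

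Other gene lists moved with these genes. Of 21 tested mitosis genes 20 fell between the tumor pools, with a median of -3.73, or -3.19 with means raised to log2 5. Mki67, a marker of cycling cells that was picked out after its values were seen, fell 5.02-fold. Of 9 tested primary granule genes of granulocyte precursors 8 fell, with a median of -3.08. Of 15 tested intestinal epithelial markers 14 rose, with a median of 2.57, or 2.13 with means raised to log2 5. Of 11 monocyte and macrophage genes 7 rose, with a median of 1.21 either way. Markers of B, T and NK cells gave 6 that rose and 1 that fell of 10 tested. Their median was 2.49, or 1.09 raised. Of 3 erythroid markers 2 rose, with a median of 2.34, or 0.59 raised, and of 9 mature neutrophil genes 1 fell. A marker dim elsewhere could pass the filter through the pool labelled HDC-KO tumor alone, which favours counts of rises. The part in the falls of the cells that these lists mark was not tested.

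Each list was also summed on the linear scale and given as log2, a sum that follows its brightest probe sets, so its shifts need not match the medians above. The 47 replication and nucleotide genes summed to 15.23 to 15.24 on the wild-type marrow arrays, 15.21 to 15.22 in HDC-KO marrow, 14.80 to 14.81 in wild-type tumor and 13.32 to 13.36 in the pool labelled HDC-KO tumor. The 16 epithelial markers summed to 7.85 to 8.10, 7.97 to 8.07, 12.37 to 12.38 and 14.78 to 14.87 in the same order. In each marrow pool 1 of the 16 was at or above log2 5, and 12 and 15 were in wild-type tumor and in the pool labelled HDC-KO tumor. The 9 primary granule genes summed to 15.29 to 15.34, 15.02 to 15.04, 14.10 and 13.37 to 13.45, and the 9 mature neutrophil genes to 16.97 to 17.23 over all 8 arrays.

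**Figure D4:**
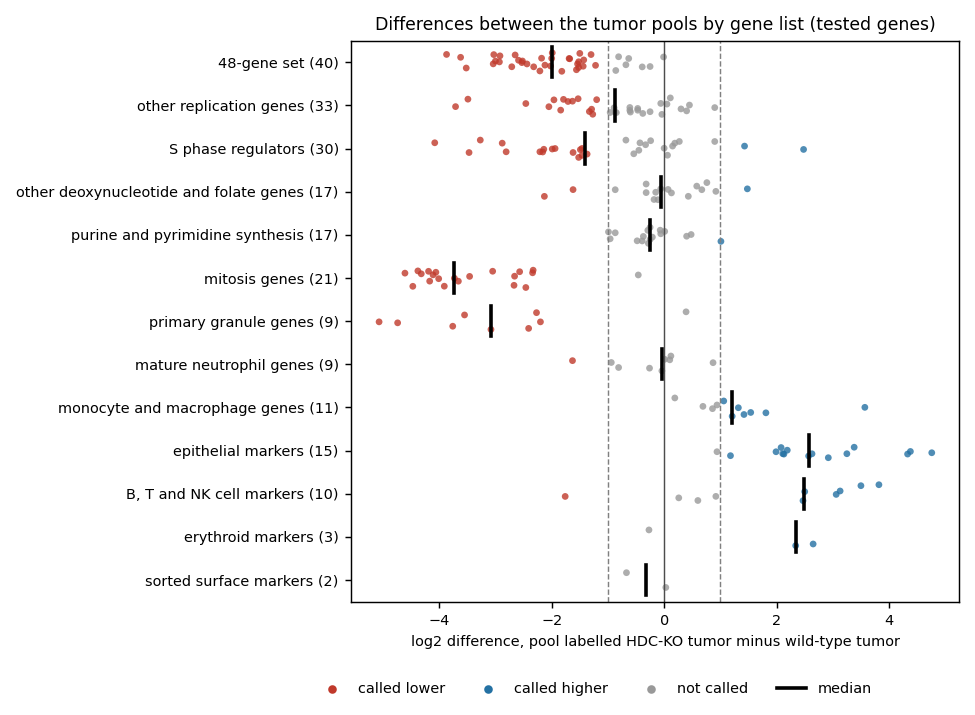
Log2 difference between the tumor pools, pool labelled HDC-KO minus wild-type (x axis), for each tested gene (points, with vertical jitter) of the 48-gene set and of other lists, with the number tested in brackets, medians as black bars and dashed lines at 2-fold. The 48-gene set, the mitosis genes and all but 1 of the primary granule genes lie left of zero, purine and pyrimidine synthesis genes lie around it, and epithelial markers lie right of it.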

How the data were processed

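The 8 arrays are single-colour Affymetrix arrays of biotin-labelled RNA, placed in 4 groups of 2 by their titles. The authors deposited log2 values for 45101 probe sets, produced by GCRMA per the submitters' processing notes, with its version not given in the sources used here. GCRMA subtracts background and puts the arrays on a common scale. The handling of dim values changes differences that reach under log2 5. For Chek1 the tumor difference was -1.99 as deposited and -0.13 with values raised to log2 5. That the deposited values are on a log2 scale was taken from their range. The number of arrays limits the precision. By GEO's platform annotation 34958 probe sets name 1 gene, 932 several and 9211 none.

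limma 3.58.1 in R 4.3.3 (lmFit, eBayes) was run over the 8174 tested genes and all 8 arrays, with 5 contrasts, 4 residual and 2.14 prior degrees of freedom. Adjusted p-values are Benjamini-Hochberg values over all tested genes, with a threshold of 0.05, and a log2 difference of 1 was also required. Where 1 of the pool means compared lay under log2 5, it was set to 5 and the fold is a bound ("at least"). Folds are left out where both lay under it. SE is limma's moderated standard error. In simulated data for the bone marrow comparison with 8174 genes, the test found 100 of 100 genes shifted by 1.5 and 100 of 100 shifted by 2 on the log2 scale, and made 0 false calls. That simulation holds technical noise alone. It shifted only genes with a wild-type marrow mean at or above log2 5. Shifts near the required log2 difference of 1 were not tried, so it does not cover calls near that threshold.

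The genes and lists were chosen with earlier results of these data known. The rule allowed naming any of the 48 genes, Hdc, the sorted markers, all E2F factors, cyclins and inhibitors of cyclin-dependent kinases, and up to 3 called genes of each other list with the largest difference per contrast. S100a8 and S100a9 were named outside it, and others are marked where they appear. Summaries used Python 3.11.15 and pandas 2.3.3.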

Additional observations from a re-analysis of the deposited data

Results flagged for a closer look

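For 33 of the 40 tested genes, the difference between the genotype labels was not the same in tumor and in bone marrow, as tested by the interaction term in limma (tumor difference minus marrow difference, adjusted p under 0.05 and 2-fold). All 33 values are below 0. They rest on 1 pool per group, and their direction is that of the labels.

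Among licensing genes the difference of effects was -3.14 for Mcm2, -2.73 for Mcm3, -1.45 for Mcm4, -2.19 for Mcm5, -2.55 for Mcm6 and -1.30 for Mcm7, the subunits of the helicase. It was -2.10 for Orc6, -2.89 for Cdc6 and -1.51 for Gmnn. For the activators of the helicase it was -1.60 for Mcm10, -2.33 for Cdc45 and -1.40 for Gins1.

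Of the polymerases and primase, Prim1 had -3.00, Prim2 -1.69, Pola1 -2.59, Pole -1.79, Pole2 -1.34 and Pold1 -1.27. The clamp loader subunits Rfc3, Rfc4 and Rfc5 had -1.98, -2.41 and -1.46, the ligase Lig1 -2.93, the nuclease Fen1 -1.31 and the single-strand binding subunit Rpa3 -1.21.

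For nucleotide synthesis the values were -2.38 for Rrm1, -2.57 for Rrm2, -2.62 for Tk1 and -2.10 for Dut. Uhrf1 had -3.72, Chek1 -2.07, Rad51ap1 -3.46, Brca1 -3.85 and Blm -1.63. Groups of 2 arrays are too small for a check of single outlying arrays.

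Some of these calls depend on dim values or on the choice of probe set. With values raised to log2 5 the difference of effects of Blm was -0.14, of Chek1 -0.22, of Mcm10 -0.35 and of Pole -0.56, and none of the 4 passed. As the mean of their probe sets, Gins1 at -0.61, Pold1 at -0.77 and Pole2 at -0.89 did not pass.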

How the results depend on the processing

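The alternatives covered the filter (none, or log2 7), dim values raised to log2 5, scaling between arrays (quantile or median), how probe sets represent a gene (mean, every tested set passing, or leaving out sets ending in _x_at, _s_at or _a_at), the variance model, fitting 2 groups alone, the replicate block, a fold alone on averaged arrays, and leaving out each array. Under all of these each count of genes that passed stayed within 1.5 times the reported count, and no called difference reversed. The difference of effects needs all 4 groups, so fitting 2 alone gives it no value. Between the tumor pools 27 of 33 genes fell without those probe sets, 28 of 33 with the filter at log2 7, 29 of 40 with values raised and 36 of 47 with no filter. With each array left out, that count was 33 throughout, as it was for the difference of effects. It was 0 in marrow, 2 to 4 for tumor against marrow in wild-type and 35 to 37 in the pools labelled HDC-KO. The labels give no shared source for arrays of the same number, and their deviations from the group means correlated at -0.0147 to 0.0575. With the replicate block the counts were 33 in tumor, 0 in marrow, 33 for the difference of effects, 3 in wild-type and 35 in the pools labelled HDC-KO, and no gene's call changed. In the tumor comparison 6 of the genes lost the call under some alternative that still tested them, as given beside them. Cdt1 and Rpa2 gained it, the latter at -1.09 when its probe sets were averaged. Genes that an alternative left untested have no result there and are not counted as lost. With probe sets averaged 35 genes were tested, and 33 with the filter at log2 7. Without sets ending in _x_at, _s_at or _a_at 33 were tested, and Cdc6 and Mcm7, for example, had no other probe set. Genes whose pools lie near log2 5 are limited by signal over background.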
